A study of Rattus norvegicus with 10 samples.

Results

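The neurotrophins and their receptors were examined in tissue of the nucleus tractus solitarii (NTS), where the brainstem receives baroreceptor and other visceral afferents. The set comprised the ligand genes Bdnf and Ntf3, the tropomyosin-related kinase (Trk) receptor genes Ntrk2 and Ntrk3, and Ngfr, which encodes the p75 neurotrophin receptor. Its members were all probe sets whose platform annotation gave one of these 5 genes as the only symbol, which came to 10 of the 31042 non-control probe sets of the array, and the 5 genes were among 14217 that were the only symbol of a probe set. The NTS of male rats aged 10 to 13 weeks was profiled on 10 Affymetrix arrays, 5 from the spontaneously hypertensive rat (SHR), inbred for high blood pressure, and 5 from the Wistar-Kyoto rat (WKY), its usual normotensive control. No treatment or engineered allele was named for either strain. Arrays are described as independent biological replicates in the design text, but the descriptions give 5 animals for a sample. P-values therefore measure the spread between arrays, whether each holds 1 animal or a pool.

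Neurotrophins are secreted growth factors made as larger precursors, which are cut by furin and related proteases to the mature form. BDNF, the product of Bdnf, binds the receptor TrkB, encoded by Ntrk2, and neurotrophin-3, the product of Ntf3, binds chiefly TrkC, encoded by Ntrk3. Both receptors are tyrosine kinases that signal through the Ras, phosphatidylinositol 3-kinase and phospholipase C gamma pathways, and both genes also make truncated forms without the kinase, of which the truncated TrkB is abundant in astrocytes. p75 binds all neurotrophins and their precursors and works with co-receptors. In the NTS, BDNF is known from baroreceptor afferents of the nodose and petrosal ganglia, whose cell bodies lie in the ganglia.

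Bdnf is transcribed from several alternative start sites joined to 1 coding exon, and the RefSeq table of assembly GRCr8 held 6 promoter windows of 300 bases for it, each running from 250 bases before to 50 bases after a start site, and 3 for Ntf3. For Ntrk2, Ntrk3 and Ngfr no sequence is shown. Both Bdnf windows below are shown because they hold the letters of sites of transcription factors whose transcripts are described further on. Capitals mark CACGTG, the E-box that USF1 and USF2 bind, in the first window, and CGTCA, the core of the cyclic AMP response element bound by CREB, in the second (both searched on both strands, CGTCA also as TGACG).
Bdnf window at chr3:116620585-116620884, plus strand: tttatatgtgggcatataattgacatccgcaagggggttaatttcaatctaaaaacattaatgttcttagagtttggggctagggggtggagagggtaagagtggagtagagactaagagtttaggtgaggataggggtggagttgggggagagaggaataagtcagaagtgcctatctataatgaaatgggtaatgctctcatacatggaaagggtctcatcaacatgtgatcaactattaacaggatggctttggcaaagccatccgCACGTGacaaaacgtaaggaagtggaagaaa
Bdnf window at chr3:116637608-116637907, plus strand: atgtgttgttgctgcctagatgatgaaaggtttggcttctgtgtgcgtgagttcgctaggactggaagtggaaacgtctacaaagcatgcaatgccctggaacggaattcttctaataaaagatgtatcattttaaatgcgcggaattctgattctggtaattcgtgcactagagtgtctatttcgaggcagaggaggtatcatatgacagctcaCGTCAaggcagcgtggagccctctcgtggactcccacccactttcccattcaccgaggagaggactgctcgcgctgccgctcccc
The CACGTG started 20 bases into the transcript and the CGTCA 35 bases before the start site. Of the 6 Bdnf windows, 1 held each motif, and 0 of the 3 Ntf3 windows held either. Of all 33469 promoter windows of this length in the table, 6.42% held CACGTG and 21.2% held CGTCA, so these matches are a description of the letters and do not show binding. Which start sites the Bdnf probe sets read is not stated.

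No probe set of these 5 genes differed between the strains at the threshold used (limma, Benjamini-Hochberg adjusted p below 0.05). A filter on dim probe sets kept those at or above the 40th percentile of signal on at least 5 arrays, and 6 of the 10 member probe sets were kept: 1 of Bdnf, 4 of Ntrk2 and 1 of Ntrk3. Of these, 0 passed in limma, beside 4.26% of all 18846 kept probe sets (2.06% higher and 2.20% lower in SHR), and 1, that of Ntrk3, had an unadjusted p under 0.05, beside 21.0% of the kept probe sets. Differences above and below 0 were even, with 3 of each. The SHR and WKY values overlapped for all 10 member probe sets, whereas they did not overlap for 5.30% of all non-control and 6.13% of the kept probe sets. In the fit without the filter, from which values of the dim probe sets are given, 0 of the 10 passed in limma, beside 2.18% of all. The count of 803 probe sets past the threshold over the whole array was 480 without WKY 4, 481 without WKY 5, 512 without SHR 2 and SHR 3 together and 206 with array median signal as a covariate.

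**Figure D1:**
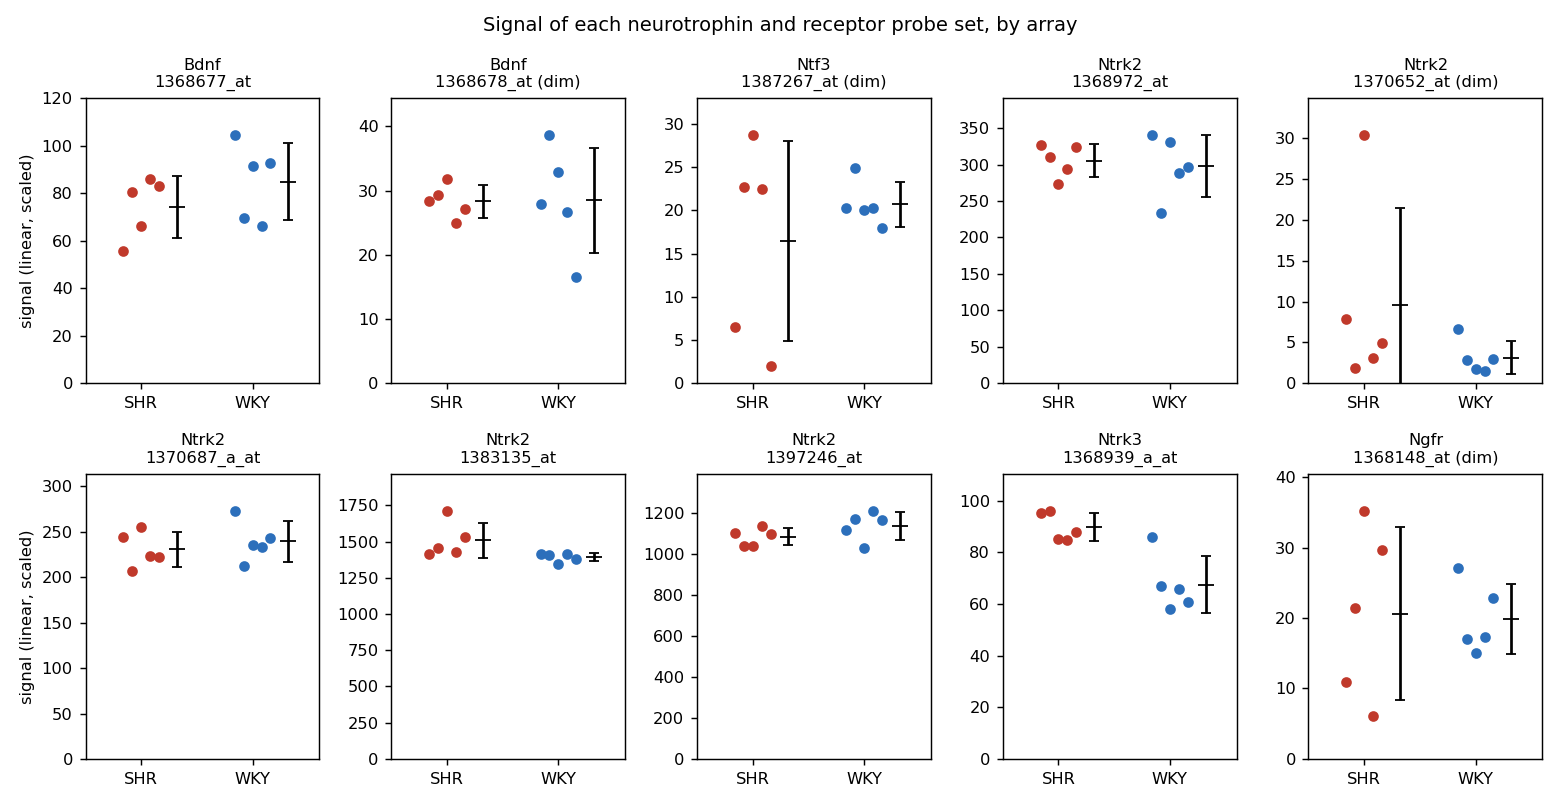
Linear scaled signal (vertical axis, from 0, a scale of its own in each panel) of each of the 10 probe sets on each of the 5 SHR and 5 WKY arrays, with the mean and SD beside the points; panels marked dim were not kept by the filter, and the SD bar of 1370652_at in SHR runs below the axis. The points of the strains overlap in every panel, and for Ntrk3 the SHR points lie between 84.8 and 96.1 and the WKY points between 57.9 and 86.0.

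Ntrk3, the TrkC gene, came nearest to a difference. Its probe set (1368939_a_at) had signals of 95.3, 96.1, 85.2, 84.8 and 87.9 on SHR arrays 1 to 5, against 86.0, 66.9, 57.9, 66.0 and 60.9 on WKY arrays 1 to 5. All SHR arrays were above WKY 2 to 5, and WKY 1 lay above SHR 3 and SHR 4. The mean was 89.9 ± 5.48 in SHR and 67.6 ± 11.0 in WKY (SD, n = 5 each), with a coefficient of variation of 6.10% in SHR and 16.2% in WKY. On the log2(signal + 16) scale, where changes of low signals are understated, the difference was 0.35 ± 0.099 (SE). As a fold of signal + 16, the difference was 1.27, higher in SHR, with a 95% interval of 1.10 to 1.47. Its adjusted p was 0.0554 in limma (unadjusted p = 0.00262), so the difference did not pass. By unadjusted p it ranked 891 of the 18846 kept probe sets.

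The adjusted p of Ntrk3 lay close to the threshold. In limma it was 0.0502 without the intensity trend and 0.0516 with a common 75th percentile, neither of which passed. Without WKY 1 the log2 difference of Ntrk3 was 0.42 and passed (adjusted p = 0.0210), and without any other single array it did not pass. The difference was above 0 under all 23 alternative settings and leave-one-out fits, and passed in 3 of them. All 3 left out WKY 1. The other 2 of these used the 8 arrays whose titles carry a number, which left out SHR 1 too. With array median signal as a covariate Ntrk3 differed by 0.30, with an adjusted p of 0.429. The median signal of an array was 44.2 to 49.8 in SHR and 39.6 to 45.7 in WKY.

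**Figure D2:**
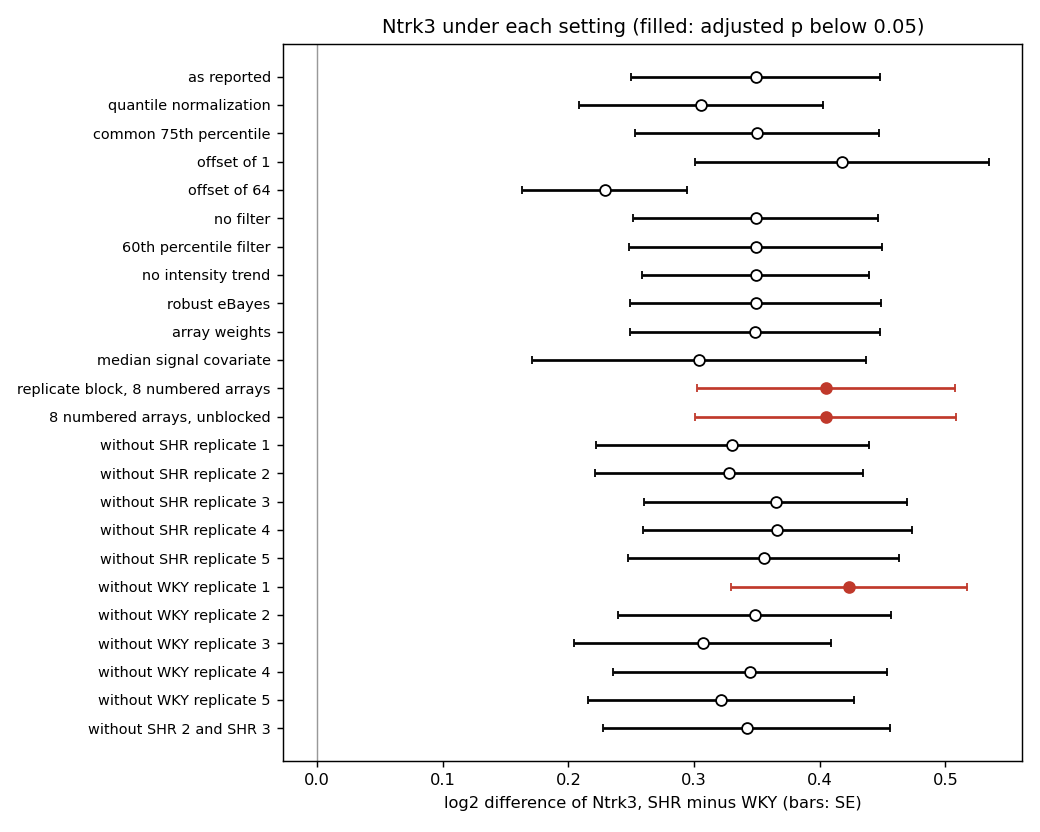
Log2 difference of Ntrk3 between SHR and WKY (horizontal axis, bars are SE) as reported and under each of the 23 alternatives, 1 per row; filled points have an adjusted p below 0.05. Values run from 0.23 with an offset of 64 to 0.42 without WKY 1, and the 3 filled points are the fits without WKY 1.

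Ntrk2, the TrkB gene, was read by 5 probe sets, more than any other member. Which isoform each probe set reads is not stated, and levels are not compared between probe sets. The brightest, 1383135_at, had signals of 1414, 1458, 1712, 1428 and 1528 on SHR 1 to 5, against 1412, 1407, 1346, 1416 and 1377 on WKY 1 to 5. Of the 5 SHR arrays, 4 lay above the highest WKY array, SHR 1 lay just below it, and SHR 3 was the highest of all. The mean of 1383135_at was 1508 ± 122 in SHR and 1392 ± 29.7 in WKY, which gave a log2 difference of 0.11 ± 0.058 with a 95% interval of -0.012 to 0.23 that did not pass (adjusted p = 0.291). Without SHR 3 it was 0.065.

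The second bright probe set of Ntrk2, 1397246_at, lay on the other side of 0. It had 1101, 1040, 1041, 1138 and 1100 on SHR 1 to 5, against 1115, 1171, 1032, 1211 and 1164 on WKY 1 to 5. WKY 3 was the lowest array of all and WKY 4 the highest, so the strains overlapped over nearly the whole range. Means were 1084 ± 42.5 in SHR and 1139 ± 68.6 in WKY, with a log2 difference of -0.068 ± 0.057 (95% interval -0.19 to 0.051; adjusted p = 0.518). It was -0.10 without WKY 3, -0.030 without SHR 2 and SHR 3 together and 0.026 with the median-signal covariate.

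Of the other kept Ntrk2 probe sets, 1368972_at had 326, 310, 273, 293 and 325 on SHR 1 to 5, against 340, 234, 331, 288 and 297 on WKY 1 to 5. WKY arrays held both its extremes, WKY 1 and WKY 2. Its log2 difference was 0.042 ± 0.088 (95% interval -0.14 to 0.23; adjusted p = 0.829), and -0.038 without WKY 2. Probe set 1370687_a_at had 245, 207, 255, 224 and 222 on SHR 1 to 5, against 273, 212, 235, 233 and 244 on WKY 1 to 5. The SD was 19.3 in SHR and 22.2 in WKY, with WKY 1 highest and SHR 2 lowest, and its log2 difference was -0.050 ± 0.077 (95% interval -0.21 to 0.11; adjusted p = 0.752), with -0.0044 without WKY 1 and -0.090 without WKY 2 as the outermost leave-one-out values. Over these 4 kept probe sets the outermost interval bounds on the fold, taken on signal plus the offset, were 0.864 and 1.18. They bound the strain difference of what these probe sets read, not of Ntrk2 as a whole, since the isoforms read are not stated. The dim Ntrk2 probe set 1370652_at, described next, had a fold interval of 0.919 to 1.72 in the fit without the filter.

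The fifth Ntrk2 probe set, 1370652_at, was dim, with 0 of 10 arrays at the 40th percentile. It had 7.88, 1.92, 30.4, 3.09 and 4.91 on SHR 1 to 5, against 6.62, 2.90, 1.80, 1.47 and 2.93 on WKY 1 to 5. SHR 3 stood alone at the top. In a fit without the filter its log2 difference was 0.33 ± 0.21 (adjusted p = 0.427). It was 0.093 without SHR 3, and 0.92 with an offset of 1.

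**Figure D3:**
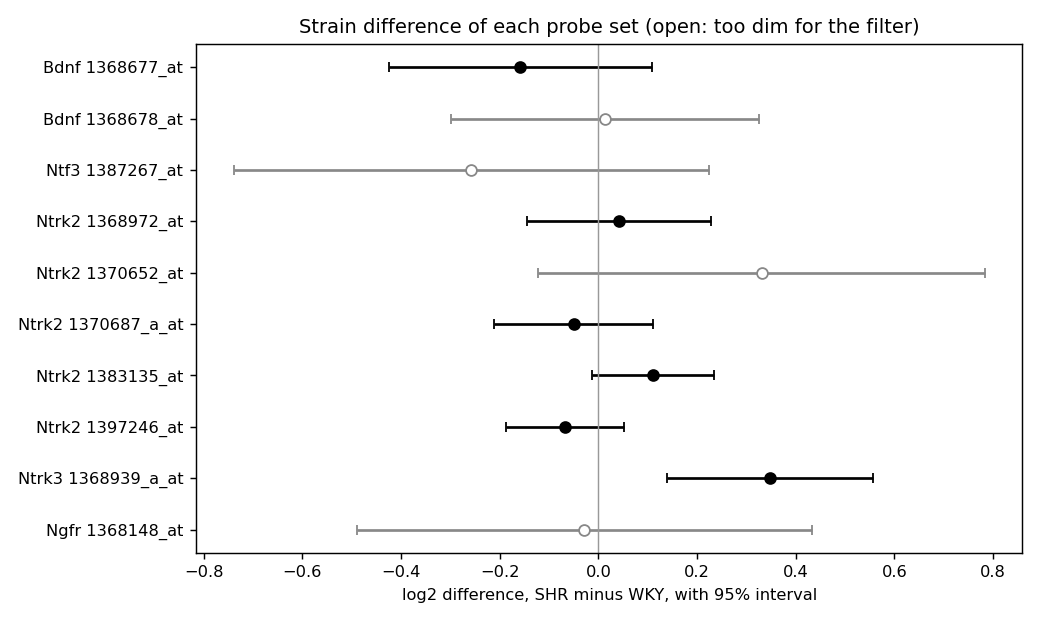
Log2 difference between SHR and WKY of each of the 10 probe sets (points) with its 95% interval (bars); filled points come from the fit on kept probe sets, open points from the fit without the filter. The intervals of 9 probe sets include 0, and that of Ntrk3 runs from 0.14 to 0.56.

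Whether the Ntrk2 probe sets differed from each other in their strain difference was tested within arrays. There a factor common to all signals of an array largely drops out. An effect that depends on signal level does not, and quantile normalization changed some of the values below. The log2 difference between 1383135_at and 1397246_at was 0.36, 0.48, 0.71, 0.32 and 0.47 on SHR 1 to 5, against 0.34, 0.26, 0.38, 0.22 and 0.24 on WKY 1 to 5. Its mean was 0.47 ± 0.15 in SHR and 0.29 ± 0.066 in WKY (SD, n = 5 each), a difference of 0.18 (exact two-sided permutation test, p = 0.0397; the smallest p the design allows is 0.00794). This was the smallest p of 5 such comparisons and was not adjusted for their number. It was 0.0556 or more without any one of SHR 2, SHR 3, SHR 5, WKY 2, WKY 4 and WKY 5, and the difference was 0.12 without SHR 3. Against 1370687_a_at the same quantity differed by 0.16 (exact permutation p = 0.0714) and against 1368972_at by 0.069 (exact permutation p = 0.548). Against the dim 1370652_at no difference is read, since the offset set its value, which was -0.81 with an offset of 1 and -0.013 with an offset of 64. The comparison with 1370687_a_at was 0.20 with an exact permutation p of 0.0317 without SHR 1 and 0.21 with the same p without WKY 2, and with quantile normalization it was 0.092 (exact permutation p = 0.198).

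**Figure D4:**
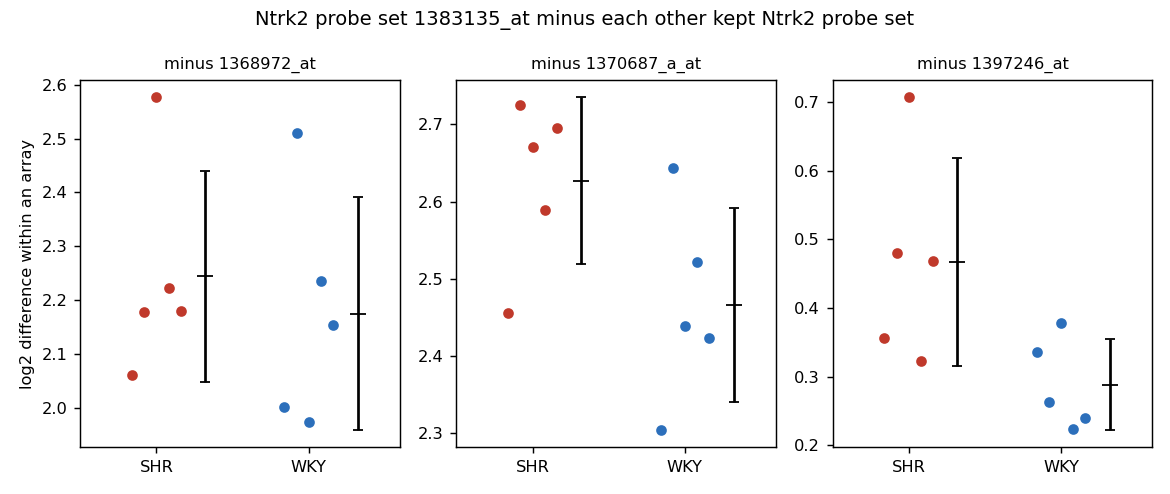
Log2 signal of Ntrk2 probe set 1383135_at minus that of each other kept Ntrk2 probe set within an array (vertical axis), for the 5 SHR and 5 WKY arrays, with mean and SD beside the points. Against 1397246_at the SHR mean is 0.47 and the WKY mean 0.29, with overlapping points.

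Bdnf, the ligand of TrkB, was lower on average in SHR on its brighter probe set, by less than the spread between arrays. Probe set 1368677_at had 55.6, 80.5, 66.2, 86.0 and 83.0 on SHR 1 to 5, against 104, 69.8, 91.3, 66.4 and 92.7 on WKY 1 to 5. SHR 1 was the lowest array and WKY 1 the highest, and the other arrays were mixed. Means were 74.2 ± 12.9 in SHR and 84.9 ± 16.2 in WKY, with a log2 difference of -0.16 ± 0.13 (95% interval -0.43 to 0.11; adjusted p = 0.499). As a fold of signal + 16 the interval reached from 0.745 to 1.08. The log2 difference of Bdnf was -0.078 without SHR 1, -0.091 without WKY 1 and -0.010 on the 8 numbered arrays, which hold neither. The dimmer Bdnf probe set, 1368678_at, reached the 40th percentile on 2 of 10 arrays. It had 28.3, 29.3, 31.8, 25.0 and 27.2 on SHR 1 to 5, against 27.9, 38.6, 32.8, 26.6 and 16.5 on WKY 1 to 5. WKY arrays held both extremes, and without the filter its log2 difference was 0.014 ± 0.15 (adjusted p = 0.971), at -0.094 without WKY 5 and 0.093 without WKY 2. A different strain effect on the Bdnf probe sets was not detected, with a difference of -0.17 within arrays (exact permutation p = 0.468). That difference was -0.31 without WKY 2, -0.034 without WKY 5 and -0.088 with quantile normalization.

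Ntf3, the ligand of TrkC, was dim on every array. Probe set 1387267_at had 6.45, 22.7, 28.7, 22.5 and 2.02 on SHR 1 to 5, against 20.3, 24.9, 20.1, 20.2 and 17.9 on WKY 1 to 5. SHR 1 and SHR 5 lay below all WKY arrays and SHR 3 above them, so the coefficient of variation was 70.1% in SHR and 12.4% in WKY. Without the filter its log2 difference was -0.26 ± 0.22 (adjusted p = 0.569). It was -0.067 without SHR 5, -0.15 without SHR 1, -0.39 without SHR 3 and -0.73 with an offset of 1. Ntf4, the gene of a further TrkB ligand, had signals of 1.05 to 2.51 in SHR and 1.14 to 7.16 in WKY and was not kept either (log2 difference without the filter -0.14 ± 0.085; adjusted p = 0.408).

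Ngfr, the p75 receptor gene, was likewise dim. Its probe set 1368148_at had 10.9, 21.4, 35.2, 6.07 and 29.6 on SHR 1 to 5, against 27.0, 17.1, 15.1, 17.3 and 22.9 on WKY 1 to 5. SHR arrays lay both above and below all WKY arrays, with 2 on each side. Without the filter its log2 difference was -0.029 ± 0.21 (95% interval -0.49 to 0.43; adjusted p = 0.959), and it had no stable sign, at -0.17 without SHR 3 and 0.14 without SHR 4. With intervals this wide, and one for Ntf3 of -0.74 to 0.22, a moderate difference of Ntf3 or Ngfr was not detectable.

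After subtracting the strain means, the kept probe sets were compared with each other over the 10 arrays, which share their scaling. Of the 15 pairs, Bdnf with Ntrk2 1368972_at had the highest Pearson correlation, 0.49, and Ntrk2 1368972_at with Ntrk2 1383135_at the lowest, -0.38. Ntrk3 correlated at 0.13 with Bdnf and at -0.027 with the brightest Ntrk2 probe set. Among 13954 probe sets of other single genes, the values of Ntrk3 were most like those of Amigo2 (r = 0.93), Spag9 (r = 0.91) and Ift172 (r = 0.90) over the 10 arrays. Among 13951, those of Ntrk2 1383135_at were most like Tdrd7 (r = 0.99), Rnf185 (r = 0.97) and Rnf130 (r = 0.95). Those of Bdnf, among 13954, were most like Card14 (r = 0.88), Stag2 (r = 0.87) and Gbp2 (r = 0.86). These are the highest of many correlations over few arrays and are given as a description.

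Signalling genes downstream of Trk receptors held 2 that changed among 44 tested of 58 listed, 1 higher and 1 lower in SHR, beside 3.98% of all 10668 genes tested on their brightest kept probe set (1.67% higher and 2.32% lower). Plcg1, the phospholipase C gamma that binds activated Trk receptors, had 298, 286, 348, 270 and 314 on SHR 1 to 5, against 220, 240, 265, 244 and 231 on WKY 1 to 5. All SHR arrays lay above all WKY arrays, and the log2 difference was 0.32 ± 0.074 (adjusted p = 0.0216). Pik3r1, a regulatory subunit of phosphatidylinositol 3-kinase, had 67.1 to 78.8 in SHR, against 77.4 to 129 in WKY. WKY 4 alone came down to the SHR values, and the log2 difference was -0.48 ± 0.11 (adjusted p = 0.0171). The calls of both ended without WKY 1 (adjusted p = 0.0587 for Plcg1 and 0.0509 for Pik3r1) and with the median-signal covariate (0.313 and 0.0693), and that of Plcg1 also without WKY 5 (0.0640). Both also ended without SHR 2 and SHR 3 together (adjusted p = 0.0710 for Plcg1 and 0.0839 for Pik3r1). That of Plcg1 ended without the intensity trend as well (0.0512). On the 8 numbered arrays the limma adjusted p of Plcg1 was 0.0880, but 0.0495 with the replicate block, where its call held. That of Pik3r1 was 0.0746, and 0.0619 with the block. The median log2 difference of this list was -0.0086, beside 0.0020 over all genes tested.

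Among 30 tested partners of p75 signalling, Rela, the p65 subunit of NF-kappa B, was higher in SHR and 0 were lower. Over all genes tested, 1.67% were higher and 2.32% lower. Rela had 151, 144, 141, 121 and 125 on SHR 1 to 5, against 99.6, 90.8, 84.3, 84.3 and 113 on WKY 1 to 5. The strains did not overlap, with a log2 difference of 0.47 ± 0.092 (adjusted p = 0.00667), and the call ended with the median-signal covariate (adjusted p = 0.0974). Bex3, a protein that binds the death domain of p75, averaged 1388 in SHR and 1375 in WKY (0.0083 ± 0.069 on the log2 scale; adjusted p = 0.962). The list's median was 0.012.

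Of 18 tested genes that process, sort or release neurotrophin precursors, 1 was higher and 0 lower. The shares over all genes tested were 1.67% higher and 2.32% lower. Cpe, the carboxypeptidase E of the regulated secretory pathway, had 3359, 3659, 4352, 4496 and 3658 on SHR 1 to 5, against 2868, 3332, 3259, 2843 and 3453 on WKY 1 to 5. SHR 1 lay below WKY 5 and the other SHR arrays above all WKY arrays, with a log2 difference of 0.30 ± 0.083 (adjusted p = 0.0477). This call ended under 16 of 23 alternatives, among them quantile normalization, under which the log2 difference was 0.073 (adjusted p = 0.307). It also ended without any one of SHR 2, SHR 3, SHR 4 and WKY 1 to 5, with adjusted p up to 0.137. Furin, the protease that cuts proneurotrophins, had 90.2 ± 17.4 in SHR and 63.7 ± 13.6 in WKY (a difference of 0.41 ± 0.13; adjusted p = 0.0924), and Sort1, the sortilin gene, had 405 ± 52.3 in SHR and 450 ± 33.7 in WKY (-0.15 ± 0.079; adjusted p = 0.288). Neither passed, and the list's median was -0.023.

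Of 19 tested genes for transcription factors and coactivators of Bdnf, 0 passed in limma and 4 had an unadjusted p under 0.05. These stand beside 3.98% of all genes tested and 21.0% of all kept probe sets. The list's count past the threshold was 1 under 7 of 24 alternatives, among them the fits without SHR 1, without SHR 4 and without WKY 5. Creb1, whose protein binds the CGTCA core shown above, had 37.2 ± 7.79 in SHR and 27.4 ± 6.18 in WKY (difference on the log2 scale 0.29 ± 0.14; adjusted p = 0.259). Usf1, an E-box factor, averaged 80.5 ± 26.1 in SHR and 70.5 ± 13.7 in WKY (0.13 ± 0.16; adjusted p = 0.687). Usf2 averaged 114 in SHR and 129 in WKY (-0.14 ± 0.12; adjusted p = 0.524). Mef2c, an activity-dependent factor, had 66.0 ± 11.3 in SHR and 91.9 ± 11.3 in WKY, the lowest difference of the list (-0.40 ± 0.11; adjusted p = 0.0514). The list's median was -0.075.

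Among 17 tested genes that respond to TrkB signalling, Tac1, the substance P precursor, was lower in SHR and 0 were higher. Of all genes tested, 2.32% were lower and 1.67% higher. Tac1 had 207, 232, 185, 219 and 199 on SHR 1 to 5, against 247, 282, 267, 264 and 266 on WKY 1 to 5. The strains did not overlap (log2 difference -0.33 ± 0.070; adjusted p = 0.0114), and the call ended with the median-signal covariate (adjusted p = 0.142). Vgf, a secreted peptide precursor induced by BDNF, had 561 ± 109 in SHR and 659 ± 88.8 in WKY (-0.24 ± 0.12; adjusted p = 0.249), and Arc, an immediate early synaptic gene, had 39.3 ± 3.78 in SHR and 39.1 ± 8.19 in WKY (0.014 ± 0.13; adjusted p = 0.965). The list's median was -0.11. Of 25 tested genes of other neurotrophic families, 0 passed in limma and 7 had an unadjusted p under 0.05, a share to be read against 21.0% of all kept probe sets. Differences ran between -0.20 for Mdk, the midkine gene, and 0.39 for Cntfr, the receptor of ciliary neurotrophic factor, with a median of 0.050. Over the 148 genes tested of these lists, 3 were higher and 2 lower, which is 3.38%, beside 3.98% of all genes tested.

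**Figure D5:**
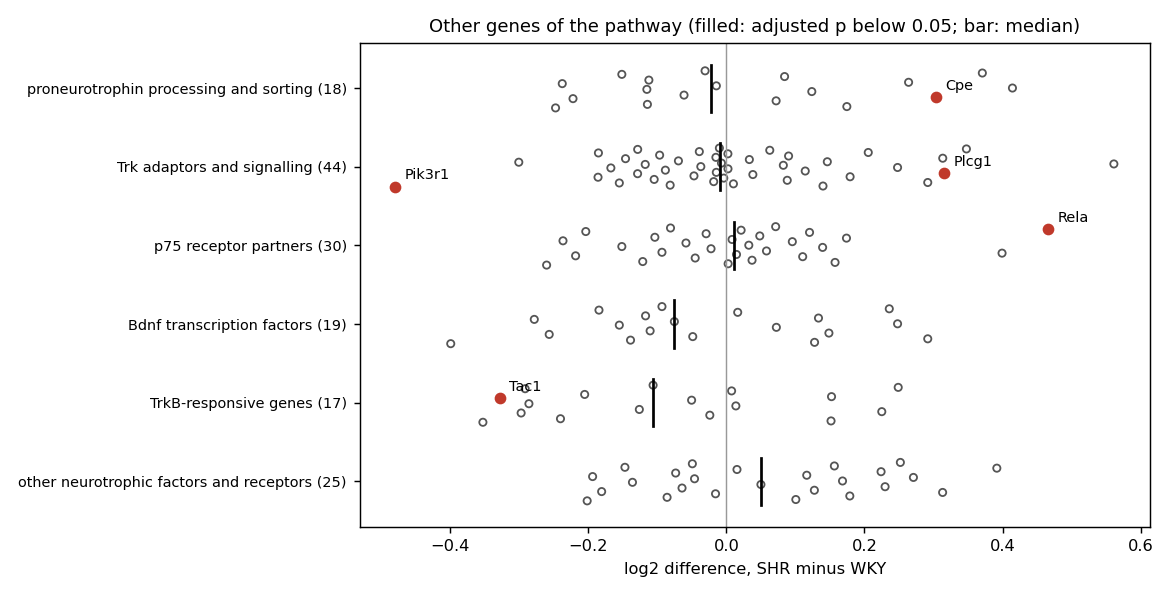
Log2 difference between SHR and WKY (horizontal axis) of each tested gene of 6 pathway lists, with the number tested in parentheses; filled, named points have an adjusted p below 0.05 and the vertical bar is the list's median. The filled genes are Cpe, Plcg1, Pik3r1, Rela and Tac1, and the medians lie between -0.11 and 0.050.

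Markers of cell types moved with strain in places, and in bulk tissue fewer cells of a type and less RNA per cell cannot be told apart. The counts stand beside 3.98% of all 10668 genes tested that passed in limma (1.67% higher and 2.32% lower in SHR). An unadjusted p under 0.05 was met by 21.0% of all kept probe sets. All 10 neuronal markers were kept, and 1, Snap25, was higher in SHR (log2 difference 0.33 ± 0.091; adjusted p = 0.0480) and 0 lower. The summed signal of the neuronal markers was 13924 to 15462 in SHR and 12367 to 14261 in WKY, with 4 SHR arrays above all WKY arrays. Sums here are of linear signals, so the brightest markers weigh most. Snap25, the brightest neuronal marker, averaged 3739 in SHR and 2952 in WKY. With quantile normalization its log2 difference was 0.13 (limma adjusted p = 0.136). Differences of the neuronal markers were above 0 for 8 and below 0 for 2. Of 8 astrocyte markers 0 passed in limma and 2 had an unadjusted p under 0.05, both higher in SHR. Differences of the astrocyte markers were above 0 for 5 and below 0 for 3. Their summed signals were 15870 to 19044 in SHR and 15310 to 17078 in WKY, here too with 4 SHR arrays above all WKY arrays. Of 9 microglial markers 3 were lower in SHR, among them C1qa (-0.42 ± 0.066) and Aif1 (-0.52 ± 0.089), with summed signals of 1355 to 1391 in SHR and 1588 to 1811 in WKY. Of 7 oligodendrocyte markers 1 was lower, Mobp (-0.34 ± 0.072), of 5 endothelial markers 1 was lower, Vwf (-0.52 ± 0.11), and of 6 choroid plexus markers 2 were higher, Enpp2 (0.28 ± 0.071) and Sostdc1 (0.47 ± 0.12). In the endothelial and oligodendrocyte lists other members lay on the other side of 0. Pecam1, an endothelial adhesion molecule, differed by 0.40 ± 0.13 with strains that did not overlap (limma adjusted p = 0.0852). Mbp, a myelin protein, differed by 0.28 ± 0.094 (limma adjusted p = 0.0992), and neither passed. The median was -0.0079 over the endothelial and -0.044 over the oligodendrocyte markers. Differences were below 0 for 8 and above 0 for 1 of the 9 microglial markers (median -0.17). For the choroid plexus all 6 were above 0 (median 0.26). The calls of Snap25, Enpp2 and Sostdc1 ended under 14, 12 and 14 alternatives. That of Vwf ended without WKY 5 (adjusted p = 0.0517), without SHR 2 and SHR 3 together (0.0532) and with the median-signal covariate (0.204), and that of Mobp without SHR 2 and SHR 3 together (0.0601) and with the covariate (0.142). The other Mobp probe sets differed by -1.41, which passed, and -0.022, which did not, and a dimmer Aif1 probe set by 0.51, which did not pass. No marker of oligodendrocyte precursors, mural cells, Schwann cells, meninges, catecholamine neurons, cholinergic motor neurons or cerebellar neurons passed in limma. An unadjusted p under 0.05 was met by 1 of 5 meningeal, 2 of 5 catecholaminergic and 1 of 4 cerebellar markers tested. No tested marker was at 0 on any array. The part of these markers in the values of Ntrk3 and the genes above was not tested.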

How the data were processed

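Total RNA of the NTS was hybridised to single-colour arrays according to the labels. The authors' deposited values are linear intensities, 1 per probe set and array, from GCOS 1.2 per the submitters' processing notes. Its background settings are not stated. The mean intensity after trimming 2% at each end was 100.0 on every array, so no further normalization was applied. Arrays correlated at 0.957 to 0.988, and no pair shared more than 2 values. The 3' to 5' signal ratio of the GAPDH control was 1.12 to 1.34 in SHR and 1.07 to 1.20 in WKY, that of beta-actin 2.26 to 3.92 in SHR and 2.64 to 3.54 in WKY, and that of hexokinase 2.22 to 20.2 in SHR (median 6.73) and 9.17 to 21.3 in WKY (median 10.3).

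Strain was taken from the titles; the first array of each strain has no number and is called 1. The 57 control probe sets were left out. Values were log2(signal + 16); strain was the single term of limma 3.58.1 (R 4.3.3) with an intensity trend, over 18846 probe sets. Of the non-control probe sets 20826 had 1 gene symbol, updated to the RefSeq table of GRCr8, 436 several and 9780 none. For a list gene the brightest kept probe set was used. Named were all member probe sets, up to 4 passing genes of each of 7 pathway lists, Ntf4, up to 2 passing genes of each of 13 marker lists, and the 3 most alike genes of each member. Bex3, Furin, Sort1, Creb1, Usf1, Usf2, Mef2c, Vgf, Arc, Mdk, Cntfr, Pecam1 and Mbp were named after their values were seen. Members and lists were chosen with earlier results of these data known. The model was tested on simulated data. Alternatives were other normalizations, offsets, filters and variance priors, array weights, a median-signal covariate, the replicate number as a block and arrays left out. SHR 2 and SHR 3, left out together in a further fit, had the highest median signals and GAPDH ratios of all arrays.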

Additional observations from a re-analysis of the deposited data

Results flagged for a closer look

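In the dim Ntrk2 probe set 1370652_at, SHR 3 had a signal of 30.4 and stood far from the other SHR arrays, the next of which was at 7.88. In the same probe set WKY 1, at 6.62, stood apart from the other WKY arrays, the highest of which was at 2.93. The gap to the nearest array was 0.791 of the range in SHR and 0.716 in WKY, above the value of 0.71 used for 5 samples. These were the 2 outliers among 20 groups of 5 arrays examined, and chance alone flags about 1 in 20 such groups.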

How the results depend on the processing

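Of 138 recomputed log2 differences of the 6 kept member probe sets, 133 kept their direction and their side of the threshold. Exceptions for Ntrk3 were 0.42 without WKY 1, and 0.40 on the 8 numbered arrays, both unblocked (adjusted p = 0.0483) and with the replicate number as a block (adjusted p = 0.0452); with 1 array left out Ntrk3 ran from 0.31 to 0.42. Small differences of Ntrk2 turned sign: 1397246_at was 0.026 with the median-signal covariate, and 1368972_at ran from -0.038, without WKY 2, to 0.090 with 1 array left out. Between Ntrk2 probe sets within arrays, 1383135_at minus 1368972_at was -0.0042 with quantile normalization and ran from -0.014 to 0.15 with 1 array left out; minus 1370687_a_at it ran from 0.12 to 0.21 and minus 1397246_at from 0.12 to 0.22. The causes were not tested.

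The count of probe sets past the threshold, 803, was 206 with the median-signal covariate, which overlaps with strain, 512 without SHR 2 and SHR 3, and 480 to 976 with 1 array left out. The count of pathway genes, 5, was 3 without the intensity trend, on the 8 numbered arrays unblocked and without SHR 2 and SHR 3, 1 with the covariate, and 3 to 6 with 1 array left out. Same-numbered arrays deviated together at correlations of 0.139, 0.134, 0.0380 and 0.282 for numbers 2 to 5. Not all were over 0.1, so the numbers were not taken as pairs. For numbers 2, 3 and 5 the same-numbered array was still the closest array of the other strain. Differently numbered arrays ran from -0.240 (SHR 2 with WKY 5) to 0.188 (SHR 5 with WKY 4). The main fit models no factor shared by arrays of both strains. On the 8 numbered arrays 929 probe sets and 7 pathway genes passed with the block, against 562 and 3 without it. Signal over background was not available, so dim probe sets limit what can be said of Ntf3 and Ngfr.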
